A study of Mus musculus with 12 samples.

Results

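Collagen chain genes are the genes whose symbol is written Col, a type number, the letter a and a chain number. Such symbols marked 44 of the 55141 genes in the count table, and they were found by symbol alone, without use of their expression. By the structure of the protein they were divided into 11 fibrillar chains, 9 chains of basement membranes and 24 others. Bulk poly-A RNA-seq was compared here between gastruloids that had been enclosed in a gel at an earlier or a later stage, and in a softer or a stiffer gel. Gastruloids are aggregates of mouse embryonic stem cells that form an anteroposterior axis and derivatives of the germ layers in culture. All of them came from 129/svev cells, were seeded at 300 cells per well, aggregated for 48 h and received a 24 h pulse of 3 µM CHIR99021, a GSK3 inhibitor that activates Wnt signaling. They were placed in a bioinert gel of dextran and polyethylene glycol at 72 h or at 96 h after seeding, with 1.0 mM or 1.5 mM of reactive groups, and all were collected at 120 h after digestion of the gel. Each of the 4 groups had 3 libraries, and each library pooled about 30 gastruloids. All 12 libraries carried a gel, so gastruloids grown without one have no place in the comparisons. Samples embedded at 72 h had also spent 48 h in the gel and those embedded at 96 h had spent 24 h, so the stage at embedding and the time in the gel cannot be told apart.

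Collagens are secreted or membrane-bound proteins made of 3 alpha chains that wind into a triple helix, in which glycine recurs at each Gly-X-Y unit. Fibrillar collagens (types I, II, III, V, XI, XXIV and XXVII) assemble into striated fibrils, type IV chains form the network of basement membranes, and types XV and XVIII are proteoglycans of basement membrane zones. Of the others, collagens with interrupted helices (FACIT) sit on fibrils, type VI forms beaded filaments, types VIII and X form hexagonal networks, and types XIII, XVII, XXIII and XXV span the plasma membrane. In the early embryo, type IV chains are laid down beneath the first epithelia, while type II is a product of the notochord, the sclerotome and the floor plate before cartilage appears.

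The classes also differed in the build of their genes, a property that the choice by symbol did not use. In the GENCODE M21 annotation of GRCm38 (mm10), 305 of the 627 internal coding exons of the 11 fibrillar genes were exactly 54 bases long, which is 48.6%. The share was 4.61% (22 of 477) for basement membrane chains, 24.5% (469 of 1916) for all 44 genes and 0.733% for internal coding exons of all protein-coding genes. Exons whose length was a multiple of 9 bases, which is 1 Gly-X-Y unit of the helix, made up 83.9% in fibrillar genes, 50.1% in basement membrane genes and 14.3% in all protein-coding genes. Several members lie side by side. Col4a1 and Col4a2 on chromosome 8, Col4a3 and Col4a4 on chromosome 1, and Col4a5 and Col4a6 on chromosome X are pairs that point away from each other. The first exons of Col4a1 and Col4a2 overlap by 22 bases, whereas 126 and 1308 bases separate the other pairs. Col6a2, Col6a1 and Col18a1 follow each other on the same strand of chromosome 10.

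RefSeq promoters of GRCm38.p6 matched 35 of the 44 genes by symbol (38 promoters), and Col1a1, Col2a1, Col4a3, Col5a2, Col9a3, Col12a1, Col14a1, Col22a1 and Col26a1 had no entry. In the 250 bases before the start, CCAAT on either strand was present in 13 of the 38 promoters (33.8% of all 32851 RefSeq promoters), GGGCGG in 22 (32.7% of all) and TATAAA in 5 (12.4% of all). Matches of different words could share bases, and a match is a description of the letters. The upstream sequences of 4 basement membrane genes are printed because Col4a5 and Col4a6 share 1 upstream region and were both higher after embedding at 72 h, while Col15a1 and Col18a1, the chains of the 2 related proteoglycans, moved in opposite directions. Each runs 5′ to 3′ on the strand of its gene, in lower case with these words on either strand in capitals, and stops before the first annotated exon base.
Col4a6 (chrX:141474077-141474326, minus strand): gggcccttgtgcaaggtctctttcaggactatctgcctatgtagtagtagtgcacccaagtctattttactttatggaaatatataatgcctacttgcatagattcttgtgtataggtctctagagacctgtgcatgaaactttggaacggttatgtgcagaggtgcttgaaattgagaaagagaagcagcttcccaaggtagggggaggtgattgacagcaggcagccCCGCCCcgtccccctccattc
Col4a5 (chrX:141475169-141475384, plus strand): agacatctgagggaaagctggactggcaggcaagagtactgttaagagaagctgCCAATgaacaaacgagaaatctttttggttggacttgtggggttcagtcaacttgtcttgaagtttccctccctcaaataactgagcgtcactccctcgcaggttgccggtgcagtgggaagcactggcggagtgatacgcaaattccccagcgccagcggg
Col15a1 (chr4:47207762-47208011, plus strand): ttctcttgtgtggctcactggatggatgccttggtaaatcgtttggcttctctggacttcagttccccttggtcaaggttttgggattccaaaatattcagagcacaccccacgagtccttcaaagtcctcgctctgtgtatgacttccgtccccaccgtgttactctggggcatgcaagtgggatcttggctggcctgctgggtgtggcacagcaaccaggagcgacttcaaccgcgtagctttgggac
Col18a1 (chr10:77166549-77166780, minus strand): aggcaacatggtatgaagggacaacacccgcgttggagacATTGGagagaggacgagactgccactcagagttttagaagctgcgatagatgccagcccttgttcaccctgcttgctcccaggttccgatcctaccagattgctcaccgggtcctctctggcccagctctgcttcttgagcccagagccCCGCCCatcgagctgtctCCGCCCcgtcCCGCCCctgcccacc
The window of Col4a6 held 1 GGGCGG word, 21 bases before its start. That of Col4a5 held CCAAT 196 bases before the start, and a GGGCGG word 30 bases before it that lies in the last 34 bases of the window, which are not printed because they belong to an annotated exon. Col18a1 held CCAAT at 210 bases and GGGCGG at 61, 43 and 33 bases before the start, and Col15a1 held none of the 3 words. A second RefSeq promoter of Col18a1 also held none of them. It is not printed because 241 of its 250 bases lie in an annotated exon.

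The libraries held between 23011791 and 27609422 counts, of which the collagen genes took 1168 to 1787 CPM. Values are given as counts relative to library size (CPM) scaled by TMM for comparisons of 1 gene between libraries, where 3 counts correspond to 0.110 to 0.134 CPM, and as the deposited FPKM for comparisons between genes, which corrects for length. Tests were edgeR quasi-likelihood tests across all genes, adjusted by Benjamini-Hochberg, and a gene passed with an adjusted p below 0.05 and was DE if its log2 fold change also exceeded 1 in size. Fold changes are 72 h over 96 h, or 1.5 mM over 1.0 mM. Of the 11 listed markers of gastruloids, levels ranged widely. Those well above the level of 3 counts in every library included T (69.2 to 289.7 CPM over the 12 libraries), Foxc1 (132 to 273 CPM) and Meox1 (65.0 to 402 CPM). The posterior gene Hoxb9 was at 0 to 0.0811 CPM in the 72 h libraries, below the level of 3 counts, and at 0.883 to 4.64 CPM in the 96 h libraries. Msgn1, a marker of presomitic mesoderm, was at 0 to 0.122 CPM over all 12 libraries, near or below that level. Replicate 1 stood apart. It had the highest CPM of its group in all 4 groups for 9 of the 34 collagens tested over 12 libraries (26.5%, against 6.44% of all genes tested), namely Col4a2, Col4a5, Col4a6, Col5a2, Col6a2, Col9a1, Col9a2, Col9a3 and Col18a1. Replicate 2 was the highest throughout for 0 collagens and replicate 3 for 1, Col15a1. Counts of genes that passed are therefore also given without replicate 1 of every group.

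A few genes made up most of the collagen message. Col26a1, a short collagen with an EMI domain, had the highest mean level at 69.4 FPKM (34.6 to 103 over the 12 libraries), followed by Col2a1 at 38.3 FPKM (24.6 to 56.8), Col18a1 at 36.3 FPKM (28 to 58.6), Col23a1 at 26.7 FPKM (20.5 to 38.0) and Col4a1 at 20.6 FPKM (16.0 to 25.4). These 5 genes held 76.1% of the summed collagen FPKM on average, from 71.8% to 79.5% in single libraries. The ranges of neighbors in this order overlapped. Col4a2 (13.3 FPKM), Col5a1 (11.5 FPKM) and Col13a1 (7.20 FPKM) came next, and 10 genes held 91.5%. The chains of type I collagen, the main collagen of bone and skin, were at 2.51 FPKM for Col1a1 and 2.17 FPKM for Col1a2, and Col3a1 was at 0.740 FPKM.

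**Figure D1:**
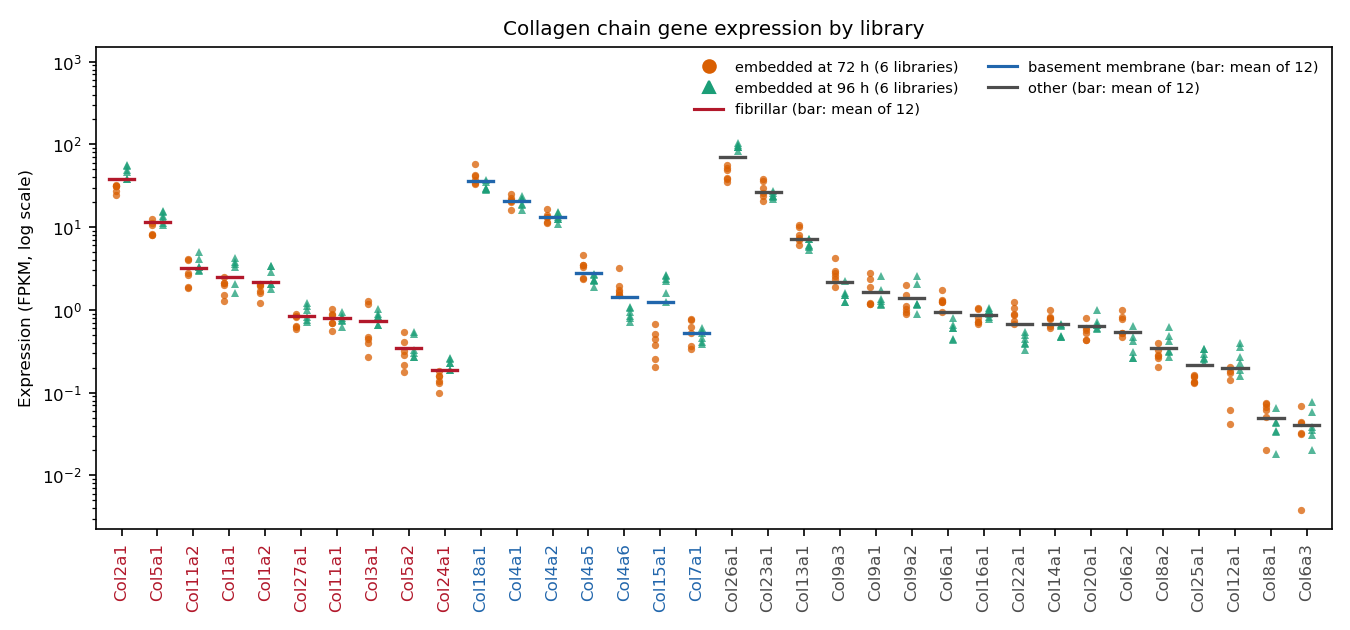
FPKM on a log scale for the 34 collagen genes tested over all 12 libraries, ordered within fibrillar (red names), basement membrane (blue names) and other collagens (gray names); circles are the 6 libraries embedded at 72 h, triangles the 6 embedded at 96 h and bars the mean of 12. Levels run from 69.4 FPKM for Col26a1 to 0.0403 FPKM for Col6a3, and the symbols of Col26a1, Col15a1, Col4a6, Col6a1 and Col22a1 separate by embedding time.

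A further 10 genes were too low to be tested over 12 libraries. Col10a1, a marker of hypertrophic cartilage, had 0 counts in every library, which allows up to 0.110 to 0.134 CPM by counting error, and Col4a3 had 12 counts in all and was listed at 0 FPKM throughout. Col4a4 had 30 counts over the 12 libraries, Col5a3 22, Col6a4 12, Col6a5 28, Col6a6 8, Col17a1 70, Col19a1 20 and Col28a1 67. Differences between groups were not tested for these genes.

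Embedding time was the comparison in which collagen genes differed. Over both gels, 18 of 34 tested collagens passed (52.9%, against 31.1% of the 16388 genes tested), 9 higher and 9 lower after embedding at 72 h, and 5 were DE (background 4.66%). In 8 of the 34 the 6 libraries embedded at 72 h did not overlap with the 6 embedded at 96 h (background 11.8%). The background of calls was 16.2% of genes for higher and 14.8% for lower values. In 1.0 mM gels alone 11 of 34 passed, 6 higher and 5 lower (background 9.24%, with 5.97% higher and 3.27% lower), and in 1.5 mM gels alone 8 of 32, 4 higher and 4 lower (background 19.3%, with 10.4% higher and 8.98% lower). Col2a1, Col4a6, Col6a1, Col15a1, Col22a1, Col25a1 and Col26a1 passed in each gel with the same sign, and these 7 genes are 63.6% of the calls in 1.0 mM gels and 87.5% of those in 1.5 mM gels. The share of all genes that passed in each gel with the same sign is not given here, so these 7 have no background beside them. The 2 gel concentrations share no library, whereas the comparison over both gels uses all of them. Without replicate 1 of every group, 15 passed over both gels (9 higher, 6 lower), 6 in 1.0 mM gels and 13 in 1.5 mM gels. These were not all the same genes. Over both gels Col1a1, Col1a2, Col14a1, Col24a1 and Col27a1 were lost and others were gained. In 1.0 mM gels Col1a2, Col4a5, Col6a1, Col6a2, Col9a3 and Col25a1 were lost and Col1a1 was gained. Col6a1 and Col25a1 thus no longer passed in each gel. The share of all genes that passed under this setting is not given here. Leaving out replicate 3 of the 96 h group in 1.0 mM gels left 6 calls there, and leaving out replicate 2 of the 96 h group in 1.5 mM gels left 5. The median log2 fold change over both gels was -0.10 for the 34 collagens and -0.01 for all genes tested. In bulk RNA, fewer cells of a type and less RNA per cell cannot be told apart.

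**Figure D2:**
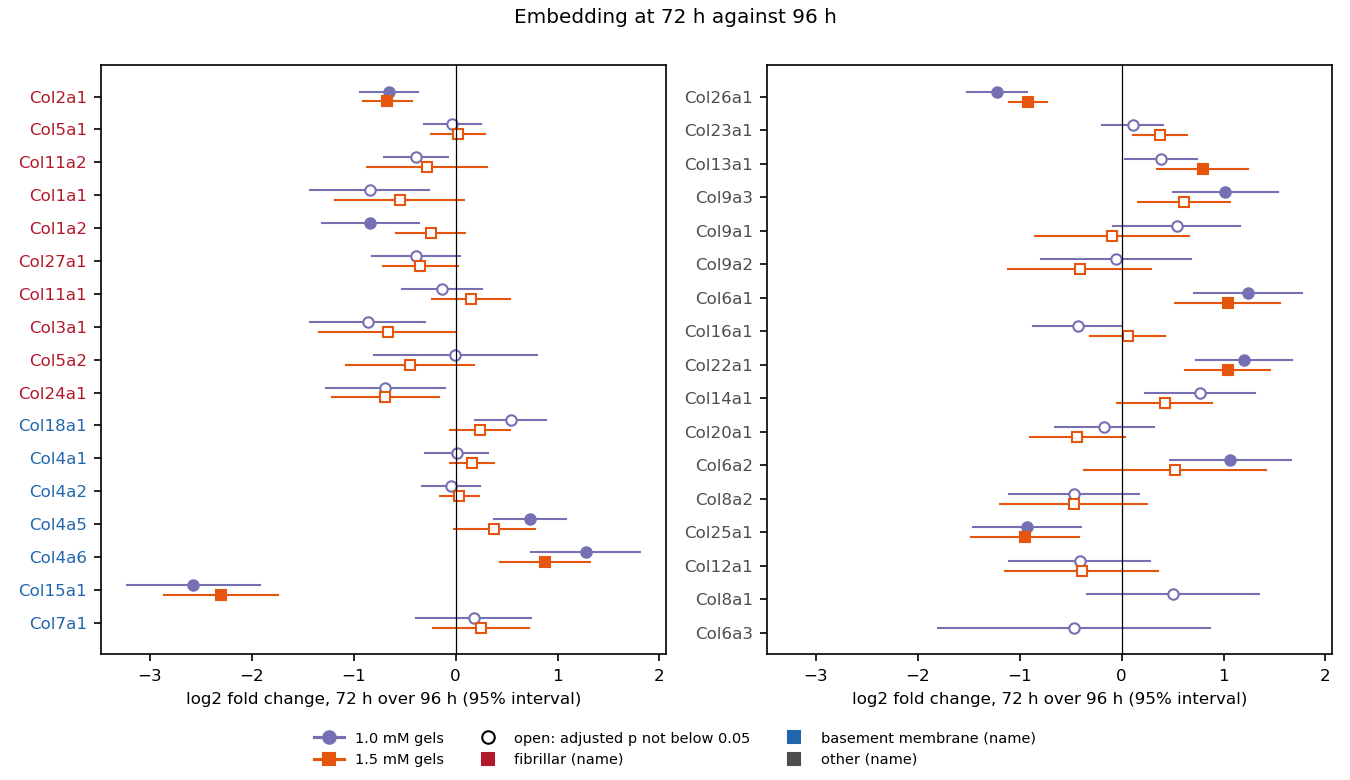
log2 fold change of embedding at 72 h over 96 h with its 95% interval for 34 collagen genes, in 1.0 mM gels (circles) and 1.5 mM gels (squares), with filled symbols for an adjusted p below 0.05; Col8a1 and Col6a3 were not tested in 1.5 mM gels. Col15a1 lies farthest left at -2.58 and -2.30, and Col4a6, Col6a1 and Col22a1 lie to the right of 0 in both gels.

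The fibrillar chains were lower or undecided after early embedding, and none passed in the other direction. Of the 10 tested over both gels, 6 passed and all 6 were lower at 72 h (Col1a1, Col1a2, Col2a1, Col3a1, Col24a1 and Col27a1), with a class median of -0.46 on the log2 scale. Over all genes tested 31.1% passed, and 14.8% passed as lower. Without replicate 1 of every group only Col2a1 and Col3a1 of the 6 still passed (edgeR adjusted p = 0.00156 and 0.0457), and Col1a1, Col1a2, Col24a1 and Col27a1 did not. None of the 6 was DE. Only Col2a1 of them passed in each gel. Col1a2 passed in 1.0 mM gels, and Col1a1, Col3a1, Col24a1 and Col27a1 passed in neither gel alone. Col2a1 encodes the chain of type II collagen, the fibril of cartilage and of the notochord sheath. It measured 215, 167 and 209 CPM at 72 h in 1.0 mM gels against 359, 257 and 317 CPM at 96 h, and in 1.5 mM gels 200.1, 212 and 209 CPM at 72 h against 387, 275 and 323 CPM at 96 h. All 6 libraries embedded at 72 h lay below all 6 embedded at 96 h. The log2 fold change over both gels was -0.66 ± 0.09 (SE), or 1.58-fold lower, with an adjusted p of 0.000102 by the edgeR quasi-likelihood test, and it was -0.65 in 1.0 mM and -0.67 in 1.5 mM gels.

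The chains of type I collagen were lower at 72 h with more spread. Col1a2 measured 14.2, 8.62 and 11.3 CPM at 72 h in 1.0 mM gels against 23.2, 14.1 and 23.7 CPM at 96 h, and in 1.5 mM gels 12.9, 13.5 and 13.6 CPM at 72 h against 19.8, 13.6 and 13.9 CPM at 96 h. Its groups overlapped in both gels, and the values near or above 20 CPM came from replicates 1 and 3 of 96 h in 1.0 mM gels and replicate 1 of 96 h in 1.5 mM gels. In 1.5 mM gels replicates 2 and 3 of 96 h lay near the 72 h values. There it was 1.19-fold lower at 72 h and did not pass (edgeR adjusted p = 0.28). Over both gels it fell by 0.54 on the log2 scale (SE 0.16, edgeR quasi-likelihood adjusted p = 0.0205), and the adjusted p was 0.0503 without replicate 1 of the 96 h group in 1.0 mM gels and 0.112 without replicate 1 of every group. Its interaction with gel concentration, 0.60 on the log2 scale with a 95% interval from -0.03 to 1.23, was not past the threshold (edgeR adjusted p = 0.953). Col1a1 ranged from 10.1 to 19.0 CPM at 72 h (median 15.6) and from 12.0 to 32.8 CPM at 96 h (median 27.3), so that the groups overlapped through replicate 2 of 96 h in 1.0 mM gels at 15.7 CPM and replicate 3 of 96 h in 1.5 mM gels at 12.0 CPM. It was 1.62-fold lower over both gels (log2 fold change -0.70 ± 0.22, edgeR adjusted p = 0.027). The call was lost, with adjusted p up to 0.0655, without replicate 2 or 3 of 72 h in 1.0 mM gels, replicate 1 or 3 of 96 h in 1.0 mM gels, or replicate 1 or 2 of 96 h in 1.5 mM gels, and it was 0.0712 without replicate 1 of every group.

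The minor fibrillar chains split. Col3a1, the homotrimeric collagen of elastic tissues, ranged from 1.92 to 4.49 CPM at 72 h and from 3.21 to 7.20 CPM at 96 h and was 1.70-fold lower (log2 fold change -0.76 ± 0.21, edgeR adjusted p = 0.0123). A miRNA gene on the same strand overlaps 141 bases of its exons. FPKM of Col3a1 followed its CPM only in part (correlation 0.65 over the 12 libraries), with means of 0.669 FPKM at 72 h and 0.811 FPKM at 96 h. Replicate 1 of 72 h in 1.5 mM gels (1.275 FPKM) and replicate 3 of 72 h in 1.0 mM gels (1.164 FPKM) lay above every 96 h library (at most 1.013 FPKM). Col24a1, a fibrillar collagen with a shortened helix, was at 0.957 to 1.74 CPM at 72 h and at 1.85 to 2.55 CPM at 96 h, without overlap, and 1.61-fold lower (edgeR adjusted p = 0.00563). It passed in neither gel alone (edgeR adjusted p = 0.145 and 0.0667), and not without replicate 1 of every group (0.0713). Col27a1, related to it, was 1.29-fold lower (edgeR adjusted p = 0.0457), and 8 of 12 left-out libraries raised its adjusted p above the threshold, to at most 0.122: replicates 2 and 3 of 72 h and 1 and 2 of 96 h in 1.0 mM gels, and replicates 1 and 3 of 72 h and 1 and 3 of 96 h in 1.5 mM gels. Without replicate 1 of every group it was 0.129. The regulatory chains that nucleate fibrils gave other values. Col5a1 averaged 82.4 ± 7.78 CPM (SD, n = 6) at 72 h and 82.8 ± 13.2 CPM at 96 h, with a 95% interval of its log2 fold change from -0.21 to 0.19. Its FPKM did not follow its CPM (9.83 against 13.2 FPKM, and a correlation of 0.293 between the 2 measures over the 12 libraries), and transcripts on the opposite strand overlap 99 and 113 bases of its exons. The interval was -0.26 to 0.28 for Col11a1, -0.77 to 0.32 for Col5a2 and -0.68 to 0.02 for Col11a2.

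Most listed markers of the sclerotome, the somite part that makes type II collagen, were lower at 72 h. Of its 9 listed genes, which include markers of the early somite, 7 passed as lower and 1 as higher over both gels. Over all genes tested 14.8% passed as lower and 16.2% as higher. Meox2 averaged 1.59 CPM after embedding at 72 h against 19.96 CPM at 96 h (log2 fold change -3.64, edgeR adjusted p = 1.45e-07), and Meox1, Uncx and Tcf15 had log2 fold changes of -1.72, -1.01 and -1.31. The summed level of the list was 250.5 to 473 CPM at 72 h in 1.0 mM gels against 757 to 882 CPM at 96 h, and 316 to 527 CPM against 615 to 826 CPM in 1.5 mM gels. Meox1 alone averaged 99.3 CPM at 72 h and 329 CPM at 96 h. Pax1 (2.31 and 6.42 CPM), Pax9 (6.56 and 9.06 CPM) and Nkx3-2 (0.719 and 0.643 CPM), named after their values were seen, were low. The sum therefore does not stand for sclerotome alone. Notochord and node markers moved the other way, with 8 of 8 genes higher at 72 h. Their summed level was 578 to 639 CPM against 246 to 335 CPM in 1.0 mM gels and 458 to 562 CPM against 209.6 to 250.4 CPM in 1.5 mM gels. No gene of either list was at 0 in all libraries, and the part of these markers in the result was not tested.

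The basement membrane chains moved in both directions while the main type IV chains gave values near 0. Of 7 tested over both gels 4 passed, with Col4a5, Col4a6 and Col18a1 higher and Col15a1 lower after embedding at 72 h, and these 4 also passed without replicate 1 of every group. Over all genes tested 31.1% passed, 16.2% as higher and 14.8% as lower. Col4a1 and Col4a2, which form the heterotrimer of nearly every basement membrane, averaged 194 ± 26.3 and 103 ± 14.1 CPM at 72 h and 183 ± 23.4 and 103 ± 10.8 CPM at 96 h (SD, n = 6). The 95% interval of the log2 fold change was -0.12 to 0.29 for Col4a1 and -0.18 to 0.17 for Col4a2.

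Col15a1 showed the widest difference of any collagen tested. It encodes the core protein of a proteoglycan that anchors basement membranes to the tissue beneath. Its values were 1.27, 1.19 and 1.50 CPM at 72 h in 1.0 mM gels against 9.12, 4.62 and 9.96 CPM at 96 h, and in 1.5 mM gels 2.00, 1.20 and 2.35 CPM at 72 h against 10.0, 7.22 and 10.2 CPM at 96 h. The lowest library at 96 h lay above the highest at 72 h. Over both gels it was 5.40-fold lower at 72 h (log2 fold change -2.43 ± 0.21, edgeR quasi-likelihood adjusted p = 1.49e-06), and leaving out any 1 library kept the log2 value between -2.55 and -2.33. An antisense gene overlaps 14 bases of its exons.

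Col18a1 encodes the core of the related proteoglycan that releases endostatin. It measured 386, 229 and 279 CPM at 72 h in 1.0 mM gels against 231, 193 and 194 CPM at 96 h, and in 1.5 mM gels 311, 223 and 239 CPM at 72 h against 251.5, 205 and 196 CPM at 96 h. The groups overlapped in each gel, and replicate 1 was the highest each time. Over both gels it was 1.31-fold higher at 72 h (log2 fold change 0.39 ± 0.12, edgeR adjusted p = 0.0232), but it passed in neither gel alone. The call was lost without replicate 2 or 3 of 96 h in 1.0 mM gels, replicate 1 of 72 h in 1.5 mM gels or replicate 3 of 96 h in 1.5 mM gels, with adjusted p up to 0.0632. The ratio of Col18a1 to Col15a1 FPKM was 119 ± 65.0 at 72 h and 15.8 ± 4.31 at 96 h (SD, n = 6), from 64.3 to 232 and from 11.4 to 23.3.

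The chains of the X-linked locus rose together. Col4a6 measured 27.9, 16.2 and 13.3 CPM at 72 h in 1.0 mM gels against 9.35, 7.35 and 7.06 CPM at 96 h, and in 1.5 mM gels 18.9, 13.4 and 14.5 CPM at 72 h against 9.94, 9.23 and 6.19 CPM at 96 h. The groups did not overlap, and the library at 27.9 CPM stood above the others. It was 2.11-fold higher over both gels (log2 fold change 1.08 ± 0.18, edgeR adjusted p = 0.000455). Col4a5, its neighbor and partner in a second type IV heterotrimer, ranged from 13.7 to 25.8 CPM at 72 h and from 9.81 to 14.2 CPM at 96 h, and was 1.47-fold higher (log2 fold change 0.56 ± 0.13, edgeR adjusted p = 0.00539). It passed in 1.0 mM gels (edgeR adjusted p = 0.0155, or 0.0771 and 0.0587 without replicate 2 or 3 of the 96 h group) and not in 1.5 mM gels (0.157). The Col4a5 to Col4a6 ratio in FPKM was 1.75 ± 0.297 at 72 h and 2.60 ± 0.186 at 96 h (SD, n = 6), and its ranges, 1.44 to 2.18 and 2.44 to 2.93, did not overlap. The first exons face each other across 1308 bases, and the upstream sequences printed for the pair lie in this gap. Col7a1, the anchoring fibril of skin, had a 95% interval from -0.17 to 0.60.

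Of 13 tested partners of these chains in basement membranes 5 were higher at 72 h and 0 lower, among them Frem1 (129 against 76.9 CPM, log2 fold change 0.75), Frem2 (0.85), Fras1 (0.61) and Lamc1 (0.35). Frem1, Frem2 and Fras1 encode the Fraser complex, which links epithelia to the dermis, and Lamc1 is a laminin chain. The list's median was 0.18, against -0.01 for all genes. The counts of this paragraph are to be read against the 31.1% of all genes that passed over both gels (16.2% higher and 14.8% lower). As a total, 5 of 13 is near that share. Endothelial markers were split, with 6 of 11 lower at 72 h and 2 higher. Sox18 (-0.95) and Emcn (-1.33) were lower and Kdr (0.35) was higher, with Cldn5 at 5.37 and 23.6 CPM (log2 fold change -2.14, edgeR adjusted p = 1.45e-06). Their summed level was 278 to 389 CPM at 72 h against 316 to 359 CPM at 96 h in 1.0 mM gels, and 278 to 417 against 381 to 433 CPM in 1.5 mM gels. Of the 10 tested primitive and parietal endoderm markers 3 were higher and 4 lower, with sums of 685 to 764 against 655 to 720 CPM and 761 to 792 against 675 to 728 CPM. No gene of these lists was at 0 throughout, and their part in the values of Col15a1 and the type IV chains was not tested.

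**Figure D3:**
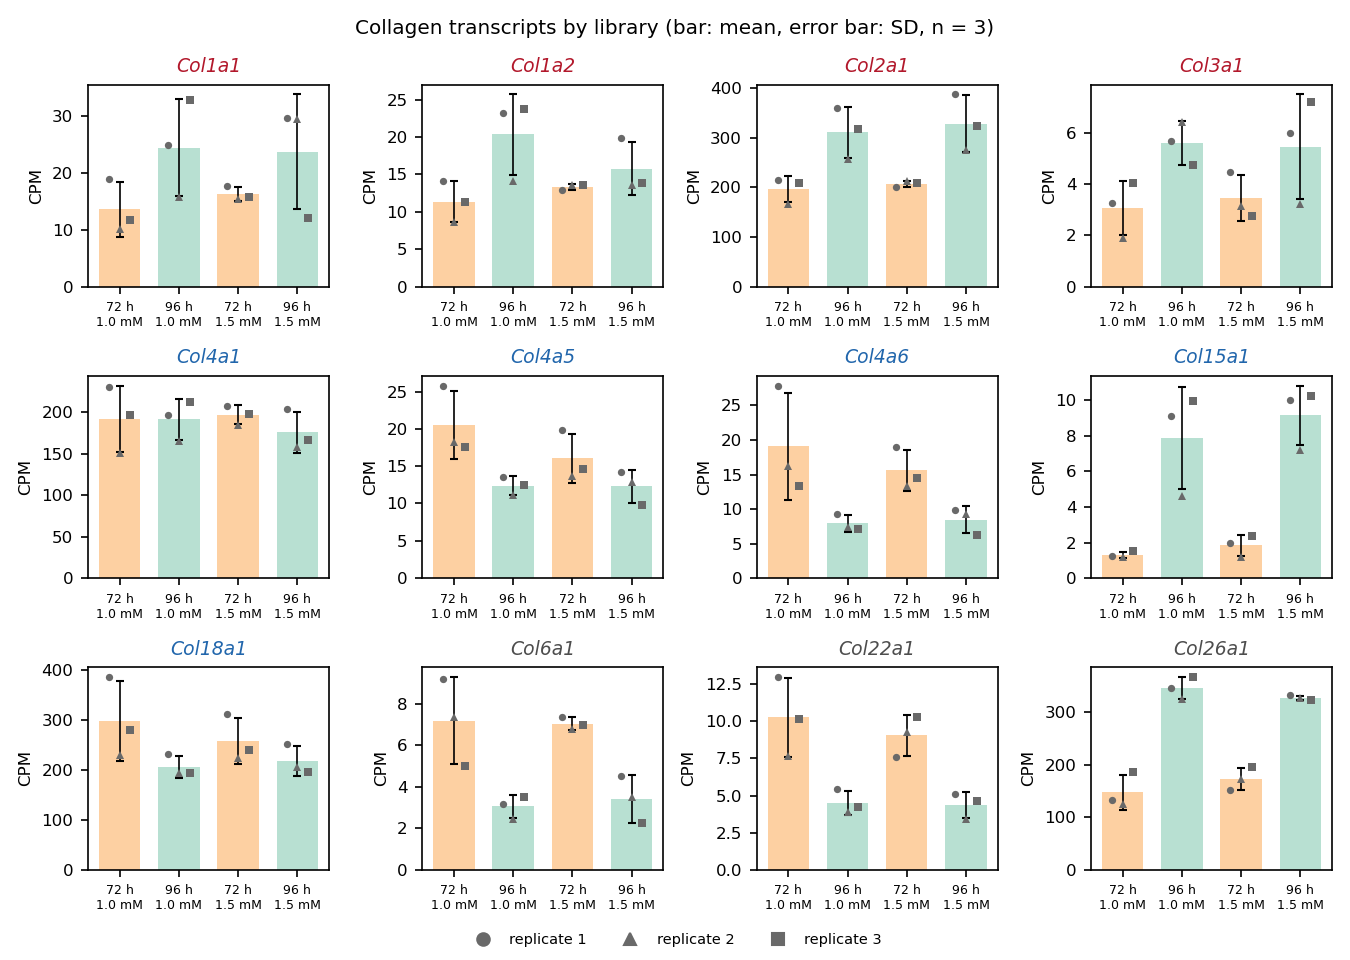
CPM of 12 collagen genes by group, with bars for the mean of 3 libraries, error bars for the SD and symbols for replicates 1 to 3; names are red for fibrillar, blue for basement membrane and gray for other collagens. Col15a1 lies between 1.19 and 2.35 CPM at 72 h and between 4.62 and 10.2 CPM at 96 h, Col4a1 overlaps in all groups, and replicate 1 is the highest in each group for Col4a5, Col4a6 and Col18a1.

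Among FACIT collagens, which decorate fibrils, 3 of 8 tested passed over both gels and all 3 were higher at 72 h. This share of 37.5% is near the 31.1% of all genes, and without replicate 1 of every group 2 of the 3 still passed (Col22a1 and Col9a3). Col22a1, a chain found at muscle and tissue junctions, measured 13.0, 7.64 and 10.2 CPM at 72 h in 1.0 mM gels against 5.44, 3.85 and 4.19 CPM at 96 h, and in 1.5 mM gels 7.60, 9.31 and 10.3 CPM at 72 h against 5.10, 3.41 and 4.63 CPM at 96 h. No library at 96 h reached the lowest at 72 h, and Col22a1 was 2.17-fold higher (log2 fold change 1.12 ± 0.15, edgeR adjusted p = 7.44e-05), with 16 exon bases shared with an antisense gene. Col9a3, a chain of type IX on cartilage fibrils, ranged from 7.66 to 15.9 CPM at 72 h and from 5.00 to 9.04 CPM at 96 h and was 1.76-fold higher (edgeR adjusted p = 0.00268). The 95% intervals of its partner chains Col9a1 and Col9a2 ran from -0.32 to 0.76 and from -0.78 to 0.31. The ratio of Col9a3 to Col9a2 FPKM was 2.30 ± 0.367 at 72 h (1.93 to 2.99) and 1.12 ± 0.251 at 96 h (0.781 to 1.39). The counts of Col9a3 share 234 exon bases with Tcfl5 on the opposite strand, and the strand setting of the counts is not stated. Col14a1, which binds type I fibrils, ranged from 2.98 to 5.17 CPM at 72 h and from 1.99 to 3.30 CPM at 96 h and was 1.51-fold higher (edgeR adjusted p = 0.0129). It passed in neither gel alone (edgeR adjusted p = 0.0794 and 0.181), and not without replicate 1 of every group (0.0862). Col12a1, Col16a1 and Col20a1 did not pass, with log2 fold changes of -0.40, -0.18 and -0.30.

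Type VI collagen, the microfibril of the matrix around cells, gave higher values at 72 h for 2 of 3 tested chains, both of which also passed without replicate 1 of every group. Over all genes tested 16.2% passed as higher over both gels. Col6a1 measured 9.20, 7.35 and 4.99 CPM at 72 h in 1.0 mM gels against 3.18, 2.45 and 3.49 CPM at 96 h, and in 1.5 mM gels 7.37, 6.77 and 6.98 CPM at 72 h against 4.5, 3.49 and 2.22 CPM at 96 h. The groups did not overlap, and the log2 fold change was 1.14 ± 0.17 (2.2-fold, edgeR adjusted p = 0.000238). In 1.5 mM gels alone its adjusted p went from 0.0155 to 0.0539 without replicate 2 of the 96 h group. Col6a2, its partner, ranged from 2.39 to 5.55 CPM at 72 h and from 1.36 to 3.56 CPM at 96 h and was 1.73-fold higher (edgeR adjusted p = 0.0328). That call was lost, with adjusted p up to 0.1, without replicate 1 or 2 of 72 h or 2 or 3 of 96 h in 1.0 mM gels, or without replicate 1 of 72 h or 3 of 96 h in 1.5 mM gels. Col6a3, the long chain that completes the monomer, had 146 counts in all 12 libraries (0.0403 FPKM against 0.943 FPKM for Col6a1 and 0.541 FPKM for Col6a2), and 1 library embedded at 72 h fell to 0.0409 CPM, below the level of 3 counts. Col8a2 of the short-chain networks had a log2 fold change of -0.47 (95% interval -0.94 to -0.003, edgeR adjusted p = 0.115).

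The transmembrane collagens differed among themselves. Col13a1, a component of cell adhesions and neuromuscular junctions, measured 30.4, 23.7 and 19.3 CPM at 72 h in 1.0 mM gels against 18.1, 16.9 and 21.3 CPM at 96 h, and in 1.5 mM gels 26.0, 42.7 and 43.7 CPM at 72 h against 23.7, 24.2 and 16.7 CPM at 96 h. The groups overlapped in 1.0 mM gels and not in 1.5 mM gels, where 2 libraries stood above 40 CPM. It was 1.51-fold higher over both gels (log2 fold change 0.59 ± 0.15, edgeR adjusted p = 0.00797), and its interaction with gel concentration was 0.42 (95% interval -0.19 to 1.03, edgeR adjusted p = 0.953). Col25a1, a transmembrane collagen of neurons, was at 1.07 to 1.69 CPM at 72 h and at 2.17 to 3.05 CPM at 96 h without overlap, and 1.92-fold lower (log2 fold change -0.94 ± 0.15, edgeR adjusted p = 0.000416). Within 1.0 mM gels its call was lost with any 1 of the 6 libraries left out (adjusted p 0.0517 to 0.153), and within 1.5 mM gels without replicate 2 or 3 of either group (at most 0.0871). Col23a1, which was the fourth in level, averaged 217 ± 47.2 CPM at 72 h and 182 ± 18.4 CPM at 96 h (SD, n = 6) and did not pass (log2 fold change 0.24, 95% interval 0.02 to 0.47, edgeR adjusted p = 0.0954).

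Col26a1, the collagen with the highest level, was also lower at 72 h. It measured 133, 124 and 186 CPM at 72 h in 1.0 mM gels against 347, 325 and 367 CPM at 96 h, and in 1.5 mM gels 153, 173 and 195 CPM at 72 h against 333, 326 and 324 CPM at 96 h. The groups were far apart relative to their spread. The fold was 2.10 over both gels (log2 fold change -1.07 ± 0.09, edgeR adjusted p = 2.27e-06), with -1.22 in 1.0 mM and -0.92 in 1.5 mM gels, and an interaction of 0.31 that did not pass (95% interval -0.06 to 0.68). Neural crest markers had 1 gene higher and 3 lower at 72 h among 6 tested (sums of 98.7 to 152 against 209 to 239 CPM in 1.0 mM gels and 139 to 162 against 199 to 257 CPM in 1.5 mM gels). Most of that sum was Ets1 (72.4 and 144 CPM), which endothelium also expresses. Sox10 and Tfap2b, named after their values were seen, reached at most 0.163 and 0.208 CPM, and Tfap2a was the higher gene (3.48 and 1.37 CPM), so that the sum does not stand for neural crest. Cardiac mesoderm markers had 10 of 11 higher (642 to 1155 against 103 to 267 CPM, and 523 to 975 against 261 to 420 CPM). Over all genes tested 16.2% passed as higher and 14.8% as lower over both gels. The part of the neural crest and cardiac markers in the collagen values was not tested.

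Summed by class, the collagen message shifted between classes with embedding time. Basement membrane chains held 36.4 ± 5.13% of the summed collagen FPKM at 72 h and 25.4 ± 0.748% at 96 h (SD, n = 6), with ranges of 31.2 to 45.2% and 24.4 to 26.3% that did not overlap. Fibrillar chains held 21.7 ± 0.752% and 26.2 ± 1.73%, also without overlap (20.6 to 22.4% against 23.5 to 28.2%), and other chains 41.9 ± 5.02% and 48.4 ± 2.17%. In absolute terms the basement membrane sums were 81.7 and 70.5 FPKM, and their ranges overlapped (67.0 to 109 against 60.0 to 79.4 FPKM). The sums were 48.6 and 72.7 FPKM for fibrillar and 93.9 and 134 FPKM for other collagens, of which Col26a1 alone gave 45.1 and 93.6 FPKM. The total was 224 ± 20.8 FPKM at 72 h and 277 ± 24.9 FPKM at 96 h. These shares are a description without a test, and the 45.2% came from replicate 1 at 72 h in 1.0 mM gels. Col2a1 alone gave 29.6 FPKM of the fibrillar sum at 72 h and 47.0 FPKM at 96 h. A smaller part of the fibrillar shift in FPKM was that of Col5a1 (9.83 and 13.2 FPKM), which was not seen in CPM. In CPM the fibrillar share was 24.7% and 30.9%, and that of basement membrane chains 42.7% and 32.8%.

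**Figure D4:**
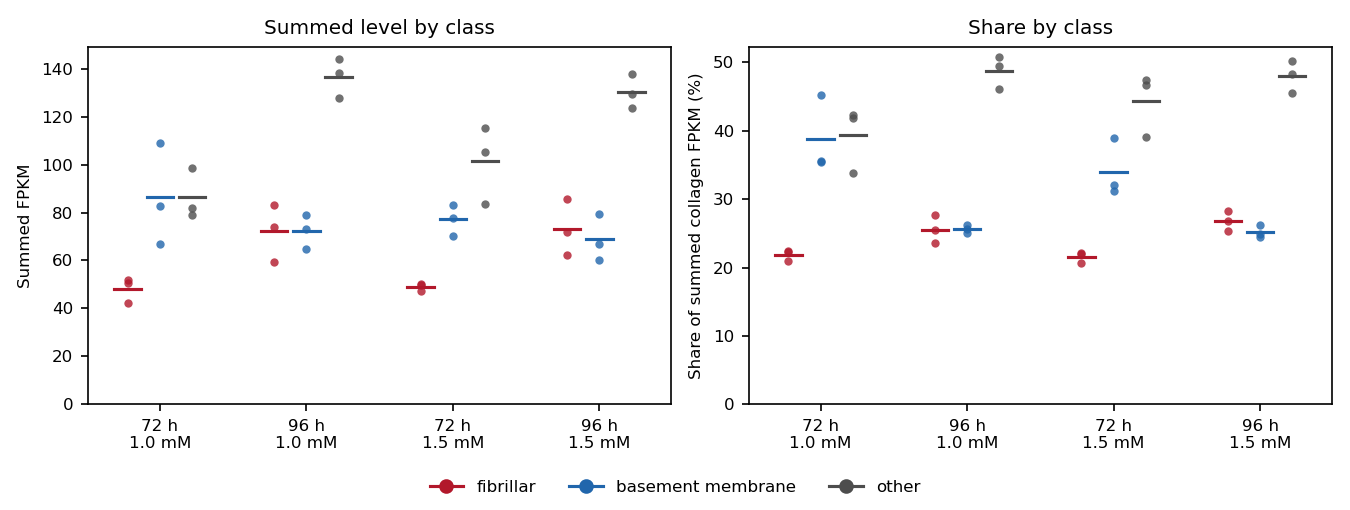
Summed FPKM (left) and share of the summed collagen FPKM in percent (right) of the fibrillar, basement membrane and other collagen genes in the 12 libraries, with points for libraries and bars for the mean of 3. Basement membrane shares lie at 31.2 to 45.2% after embedding at 72 h and at 24.4 to 26.3% after embedding at 96 h, and the fibrillar sums at 42.2 to 51.9 FPKM and 59.3 to 85.5 FPKM. The basement membrane sums overlap, at 67.0 to 109 FPKM and 60.0 to 79.4 FPKM.

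Gel concentration left 0 collagens past the threshold among genes kept by the filter on low counts. In gastruloids embedded at 72 h, 0 of 34 passed (background 0% of 15563 genes), and 3 had an unadjusted p below 0.05, against 6.90% of all genes. At 96 h 0 of 33 passed (background 0% of 15861), with 1 at an unadjusted p below 0.05 (9.95% of all genes), and over both embedding times 0 of 34 (background 0.0305% of 16388) with 4 (12.7% of all genes). DESeq2 and limma-voom also called 0 collagens in all 3 comparisons. Without a filter on low counts edgeR called 3 collagens at 72 h, 1 at 96 h and 3 over both times, all higher in 1.5 mM gels, so the count of 0 depends on that filter. Over both times these included Col13a1 (edgeR adjusted p = 0.000211, against 0.274 with the filter) and Col11a2 (2.56e-05, against 0.285). The share of all genes called without the filter is not given here, so these calls are not read as a result about collagens. Over both embedding times the 95% interval of the log2 fold change lay within 1 in either direction for 32 of 34 collagens and within 0.5 for 20. The exceptions to the first were Col6a3 and Col8a1, both with low counts. For the most abundant members the interval was -0.12 to 0.27 for Col2a1, -0.13 to 0.27 for Col26a1, -0.32 to 0.19 for Col18a1, -0.25 to 0.16 for Col4a1 and -0.30 to 0.05 for Col4a2.

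Of the genes with an unadjusted p below 0.05, Col13a1 had a log2 fold change of 0.62 ± 0.21 at 72 h (edgeR adjusted p = 0.698) and 0.41 over both times (edgeR adjusted p = 0.274). At 72 h its 1.5 mM libraries held 26.0, 42.7 and 43.7 CPM and its 1.0 mM libraries 30.4, 23.7 and 19.3 CPM, so that the groups overlapped through replicate 1. Without replicate 1 of every group its log2 fold change at 72 h was 1.01 with an edgeR adjusted p of 0.0212, and 2 collagens passed in that comparison. Col23a1 gave 0.37 at 72 h and 0.23 over both times, Col16a1 gave 0.45 at 72 h, and Col8a1 gave -0.69 over both times on 96 counts in all. Col11a2, a chain of type XI that sets the width of cartilage fibrils, gave 0.38 at 96 h (24.5 to 27.2 CPM in 1.0 mM and 23.9 to 40.3 CPM in 1.5 mM gels, edgeR adjusted p = 0.451) and 0.44 over both times (0.285). Leaving out replicate 1 of 96 h in 1.5 mM gels brought its value at 96 h to 0.59 and its adjusted p to 0.0449.

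**Figure D5:**
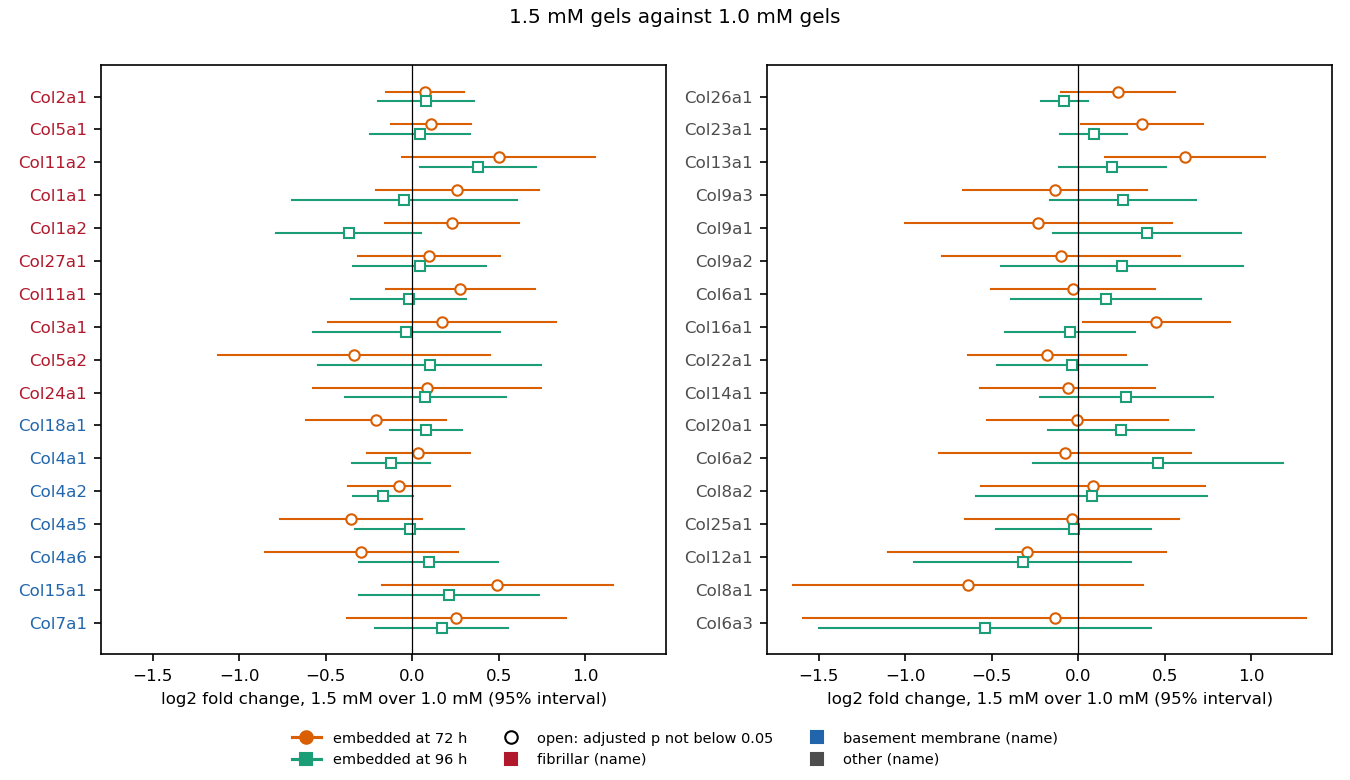
log2 fold change of 1.5 mM over 1.0 mM gels with its 95% interval for 34 collagen genes in gastruloids embedded at 72 h (circles) and at 96 h (squares); Col8a1 was not tested at 96 h. Every symbol is open, since 0 collagens passed, and Col13a1 at 72 h has the highest value at 0.62.

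The effect of embedding time was also compared between the gels. No collagen had a different effect past the threshold (0 of 34, background 0% of 16388 genes, 0 at an unadjusted p below 0.05 against 4.32% of all genes, and 0 by DESeq2 and by limma-voom). The log2 interaction ran from -0.62 for Col9a1 to 0.60 for Col1a2. Its 95% interval stayed within 1 in either direction for 18 of 34, and it reached beyond 1 for the other 16, among them Col4a6 (-1.14 to 0.36) and Col15a1 (-0.61 to 1.18).

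Genes that make, process and bind collagens included genes that passed in both directions with embedding time. The shares below are to be read against the 31.1% of all genes that passed over both gels (16.2% higher and 14.8% lower), and several lie near it. Of 21 enzymes and chaperones of synthesis and folding 7 were higher and 2 lower at 72 h over both gels. P4ha1, a prolyl 4-hydroxylase subunit that stabilizes the helix, averaged 92.3 CPM after embedding at 72 h against 60.3 CPM at 96 h (log2 fold change 0.61, edgeR adjusted p = 0.0037), and Fkbp10 and P3h2 were higher by 0.34 each. P3h3, of the prolyl 3-hydroxylase family, was lower at -0.58. Of 11 tested genes of processing and crosslinking 4 were higher and 4 lower. Tll1, a protease of the BMP1 family that trims procollagen ends, was at 3.86 and 0.754 CPM (2.33, edgeR adjusted p = 2.12e-05), while Bmp1 itself (-0.35) and its enhancer Pcolce (17.1 and 33.2 CPM, -0.95) were lower, and the crosslinking enzyme Loxl1 was higher at 0.62.

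Receptors and associated matrix genes were mixed as well. Among 11 tested receptors Antxr1 (0.46) and the integrin chain Itgb1 (0.31) were higher, and Itga11, a receptor chain for fibrillar collagen (-1.81, at 0.199 and 0.704 CPM), and the collagen uptake receptor Mrc2 (-0.36) were lower. Of 18 tested matrix genes associated with collagens 5 were higher and 3 lower. Fmod, a fibril-binding proteoglycan, was lower by the widest margin (0.235 and 2.28 CPM, log2 fold change -3.24, edgeR adjusted p = 3.45e-05), together with Bgn (-0.82) and Fbln1 (-0.26). At 72 h Fmod ranged from 0.0445 to 0.624 CPM, in part below the level of 3 counts, and Itga11 went down to 0.122 CPM, about that level. The sizes of these 2 fold changes are therefore uncertain. Fbn1, the fibrillin of microfibrils, was higher (165 and 94.98 CPM, 0.80). Of 14 transcription factors of collagen genes 5 were higher and 3 lower, among them Sox9 (60.7 and 44.0 CPM, 0.46) and Lmx1b (0.59), which were higher, and Scx (-1.13) and Twist2 (-1.06), which were lower. Sox9 is the known activator of Col2a1, and the 2 genes had opposite signs here. With gel concentration over both embedding times 0 genes of these lists passed (edgeR, background 0.0305%).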

How the data were processed

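Poly-A RNA-seq of 12 pools of gastruloids was deposited as raw counts per gene (55141 genes) and as FPKM (55138 genes). The authors trimmed reads with cutadapt 4.4 (quality 30, minimum length 15) and mapped them to mm10 with STAR 2.7.10b and a customized Ensembl annotation. The paper names STAR as the source of its raw counts, whereas the deposited counts are labeled HTSeq, so the counting tool is not settled here. The strand setting of the counting is not given in the sources used here. The authors computed the deposited FPKM with Cufflinks 2.2.1.3. A table of the authors' own DESeq2 comparisons was not used.

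Counts without 36 mitochondrial genes were tested with edgeR 4.0.16 (TMM, filterByExpr at 10 counts and 15 in total, quasi-likelihood F test, Benjamini-Hochberg over all genes tested) in R 4.3.3, in the 4 pairs of groups and in 3 fits of all 12 libraries (embedding time with gel as a covariate, gel with time, and their interaction). SE is the log2 fold change over the root of F. Alternatives were DESeq2 1.42.0, limma-voom (limma 3.58.1), RLE factors, other count filters, mitochondrial genes kept, a replicate block and libraries left out. The fits were also run on simulated counts with a fixed spread, no replicate effect and changes larger than most of those reported here. That run does not bear on the calls above. Intervals and floors of 3 counts cover counting error or the spread between libraries, and PCR duplicates were not identified by molecular tags.

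Collagens were found by symbol. All are accounted for, and values are given in full for those past the threshold in any comparison, the leading FPKM of each class and partner chains. Of each other list up to 4 genes that passed, by the smallest p, are named. The members and lists were chosen with earlier results of these data known.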

Additional observations from a re-analysis of the deposited data

How the results depend on the processing

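None of the collagens that passed, or had an unadjusted p below 0.05 for gel concentration, reversed its direction under the alternatives run, which were not followed gene by gene for the others. Requiring a log2 fold change above 1 as well left 7 collagens for embedding time in 1.0 mM gels, 3 in 1.5 mM gels and 5 over both gels. Without a filter on low counts 18 passed in 1.0 mM gels, and for gel concentration 3 at 72 h, 1 at 96 h and 3 over both embedding times. Leaving out 1 library gave 6 to 10 calls in 1.0 mM gels, 5 to 10 in 1.5 mM gels, 15 to 18 over both gels and 0 to 1 for gel concentration at 96 h, the 1 being Col11a2. Without replicate 1 of every group, an alternative chosen after the data were seen, 6 passed in 1.0 mM gels, 13 in 1.5 mM gels, and 2 for gel concentration at 72 h. The genes that passed were not all those of the main fits. Over both gels DESeq2 called 18 and limma-voom 16, where Col1a1 (adjusted p = 0.059) and Col27a1 (0.05) were lost. The interaction stayed at 0 under every alternative. The cause of these shifts was not tested. The share of all genes called under each alternative is not given here, so these counts have no background beside them.

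With CPM in place of FPKM the fibrillar share was 24.7% at 72 h and 30.9% at 96 h, the basement membrane share 42.7% and 32.8%, and the share of others 32.6% and 36.3%, since CPM does not correct for length. Type IV chains alone held 17.6% and 13.2% of the FPKM.

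With the replicate number as a block, 14 collagens passed in 1.0 mM gels, 12 in 1.5 mM gels and 18 over both gels, and 0 for gel concentration and the interaction. Deviations of libraries with the same number correlated at 0.044 to 0.302, not above 0.1 in every pair, and 12 of 12 libraries correlated best with their own number, a hint from the data and not from the design. At this depth, collagens with few counts, such as Col6a3 and Col8a1, had intervals beyond 1 log2 unit.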
